A study of Mus musculus with 15 samples.

Results

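Serpins are inhibitors that offer a protease a bait loop and are cut, change shape and trap the enzyme in an inactive complex. Members of clade B mostly lack a secretion signal and act inside cells or after release from damaged cells, and several are prominent in stratified epithelia. In human airway epithelium, *SERPINB2* is known, with *POSTN* and *CLCA1*, as a gene that IL-13 raises, and the counterparts of mouse *Serpinb3a* to *Serpinb3d*, *SERPINB3* and *SERPINB4*, are known as squamous cell carcinoma antigens that increase in atopic skin.

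The 7 genes described here, *Serpinb2*, *Serpinb3a*, *Serpinb3b*, *Serpinb3c*, *Serpinb3d*, *Serpinb5* and *Serpinb12*, were taken by symbol from the 55487 genes of the count table, and all 7 were among the 19006 genes that passed the filter on low counts (at least 10 counts in at least 5 libraries). RNA-Seq was performed on conjunctival tissue of female WT BALB/c mice (the labels spell the strain BALC/c), used at 9 to 12 weeks of age. All mice, the controls included, had been sensitized in the ear skin with OVA and MC903 (calcipotriol, 2.5 nmol daily for 7 days), a vitamin D analog that evokes atopic dermatitis–like inflammation. In 3 groups of 5 libraries, the eyes were challenged for 7 days with PBS (PBS group, for which no antibody is named), with OVA under isotype control antibody (isotype group), or with OVA under anti–IL-4Rα, a surrogate of dupilumab (anti–IL-4Rα group). Both antibodies were given at 25 mg/kg in 4 injections after sensitization. The comparison of the isotype with the PBS group addresses ocular OVA challenge together with any effect of the antibody injections, which cannot be told apart here. That of the anti–IL-4Rα with the isotype group addresses receptor blockade under challenge. Since both use the isotype group, and both comparisons with the PBS group share that group as well, values are given side by side.

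Library totals ranged from 48622246 to 87745024 counts. Levels were read for 8 genes listed as conjunctival epithelium markers (*Krt4*, *Krt13*, *Krt5*, *Krt14*, *Krt15*, *Trp63*, *Epcam* and *Elf3*). Their summed level was 12976 to 16136 normalized counts per 1000000 counts of a library (CPM) in the PBS group. It was 13401 to 17475 in the isotype group and 10678 to 14775 in the anti–IL-4Rα group. The largest parts were *Krt5*, *Krt14* and *Krt15*, with PBS means of 5662, 3182 and 2920 CPM, against 983 and 958 for *Krt4* and *Krt13*. Those largest parts are not particular to conjunctiva, so the sum cannot tell conjunctiva from epidermis. The libraries also held RNA of neighboring tissue. Lacrimal acinar markers (*Aqp5*, *Bhlha15*, *Car6* and *Dcpp1* to *Dcpp3*, the last 3 at 1 count or less in every library) summed to 134 to 741 CPM in the PBS group, 165 to 541 in the isotype group and 193 to 2076 (median 1431) in the anti–IL-4Rα group. Hair follicle markers reached 8691 CPM in isotype replicate 2 against 650 CPM in the lowest isotype library. The 6 epidermis markers summed to 13900 to 20780, 13795 to 18909 and 10597 to 15628 CPM in the PBS, isotype and anti–IL-4Rα groups. Skeletal muscle markers summed to 5679 to 9874, 3402 to 5180 and 4505 to 6690 CPM in these groups, and 5 of the 6 were lower in the isotype than in the PBS group. Corneal epithelium markers summed to 902 to 1198, 466 to 917 and 797 to 1120 CPM, with 1 of the 3 lower in isotype against PBS and 2 higher in anti–IL-4Rα against isotype. Within the anti–IL-4Rα group, replicate 3 had the highest sums of conjunctival epithelium, hair follicle, skeletal muscle and corneal epithelium markers. The highest lacrimal acinar and epidermis sums of that group were in replicate 5. The TMM normalization factor of replicate 3 was 1.09, against 0.803 to 0.927 in the other anti–IL-4Rα libraries. The part of this tissue makeup in the members' levels was not tested beyond the fits that hold a marker score or scaling. In bulk tissue, fewer cells of a type and less RNA per cell cannot be told apart.

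All 7 genes lie on chromosome 1 of GRCm38 (positions from GENCODE M21). *Serpinb5* (chr1:106861173-106883348) and *Serpinb12* (chr1:106934449-106957080) are on the plus strand. They are followed on the minus strand by *Serpinb3a* (chr1:107045587-107052303), *Serpinb3d* (chr1:107078167-107083506), *Serpinb3b* (chr1:107153940-107278361) and *Serpinb3c* (chr1:107271201-107278371), and then by *Serpinb2* (chr1:107511423-107535478) on the plus strand. The annotated span of *Serpinb3b* overlaps *Serpinb3c* except for the last bases, ending at 107278361 against 107278371. That of *Serpinb2* runs into *Serpinb10* on the same strand.

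The *Serpinb3* genes are near copies. Their coding sequences were 93.1% identical between *Serpinb3a* and *Serpinb3b*, 93.4% between *Serpinb3b* and *Serpinb3c*, and 86.8% to 89.2% between *Serpinb3d* and the others, while coding identity of the other member pairs was 57.7% to 64.3%. The 250 bases upstream of the RefSeq start sites (GRCm38.p6), shown here because the copies differ so widely in level, were 81.2% to 91.6% identical among *Serpinb3a*, *Serpinb3b* and *Serpinb3c*, as the share of the window that was identical after global alignment. Against these 3, the window of *Serpinb3d* was 48.4% to 51.6% identical, within the 48.4% to 56% range of the other member pairs. Capitals mark TATAAA on either strand.
Serpinb3a (chr1:107052304-107052553, minus strand): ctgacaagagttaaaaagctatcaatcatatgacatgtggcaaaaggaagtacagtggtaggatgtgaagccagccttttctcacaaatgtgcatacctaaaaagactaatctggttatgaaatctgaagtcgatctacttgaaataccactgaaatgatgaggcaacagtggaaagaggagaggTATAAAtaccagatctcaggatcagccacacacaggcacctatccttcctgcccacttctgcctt
Serpinb3b (chr1:107161115-107161364, minus strand): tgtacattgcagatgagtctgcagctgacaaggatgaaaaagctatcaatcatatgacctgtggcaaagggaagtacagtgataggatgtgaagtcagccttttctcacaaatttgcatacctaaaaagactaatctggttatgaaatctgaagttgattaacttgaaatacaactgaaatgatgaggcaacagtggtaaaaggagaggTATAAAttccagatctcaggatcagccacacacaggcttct
Serpinb3c (chr1:107278372-107278621, minus strand): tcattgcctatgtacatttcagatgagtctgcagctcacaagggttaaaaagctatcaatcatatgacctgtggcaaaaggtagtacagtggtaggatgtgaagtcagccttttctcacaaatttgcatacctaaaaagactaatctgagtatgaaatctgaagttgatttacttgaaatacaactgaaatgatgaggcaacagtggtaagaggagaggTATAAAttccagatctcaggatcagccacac
Serpinb3d (chr1:107083481-107083730, minus strand): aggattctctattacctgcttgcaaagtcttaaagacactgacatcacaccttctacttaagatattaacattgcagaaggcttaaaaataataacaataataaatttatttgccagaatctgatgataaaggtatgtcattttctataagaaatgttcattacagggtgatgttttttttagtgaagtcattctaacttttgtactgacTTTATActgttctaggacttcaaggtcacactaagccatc

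TATAAA was found on either strand in the windows of 6 members, all but *Serpinb5*, and in 12.4% of 32851 windows of that length upstream of annotated start sites. In *Serpinb3a*, *Serpinb3b* and *Serpinb3c* its first base lies at -65, -41 and -31 relative to the start site. TGANTCA, an AP-1 site loosened to allow any central base, was present in *Serpinb2* and *Serpinb5* as TGAATCA and in *Serpinb12* as TGATTCA. No match in these members had a central C or G. The loosened letters were in 6.75% of all windows. TTCNNNNGAA, the spacing that STAT6 is known to prefer and that reads the same on both strands, was in none of the 7 members' windows and in 5.85% of all. Members are counted here but windows in the shares, and *Serpinb2* and *Serpinb12* have 2 windows each. The windows of *Serpinb3a*, *Serpinb3b* and *Serpinb3c* are near copies, so their matches are not independent. These are matches of letters and say nothing of binding.

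The members fell into 2 ranges of level, which are compared per length, as CPM per kb of annotated exon (mean ± SD, n = 5). In the PBS group, *Serpinb3a* stood at 148 ± 23.5, followed by *Serpinb5* at 110 ± 12.8, *Serpinb3b* at 57.3 ± 13.6, *Serpinb2* at 42.5 ± 9.06 and *Serpinb12* at 18.8 ± 4.51 CPM per kb. *Serpinb3c* and *Serpinb3d* stood at 0.346 ± 0.0646 and 0.198 ± 0.122 CPM per kb, although their coding sequences are close to that of *Serpinb3a*. Between neighbors in this order the libraries of *Serpinb3a* and *Serpinb5*, of *Serpinb3b* and *Serpinb2*, and of *Serpinb3c* and *Serpinb3d* overlapped, and the other steps were free of overlap.

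In the isotype group the first 4 places changed, with *Serpinb5* at 113 ± 12.2, *Serpinb3a* at 107 ± 20.4, *Serpinb2* at 53.9 ± 11.9 and *Serpinb3b* at 45.4 ± 4.67 CPM per kb. The changes were between neighbors whose libraries overlapped. In the anti–IL-4Rα group *Serpinb3a* was again first (127 ± 26.9), then *Serpinb5* (91.6 ± 14.6), *Serpinb3b* (38.3 ± 6.88), *Serpinb2* (34.96 ± 9.88) and *Serpinb12* (15.9 ± 3.14).

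**Figure D1:**
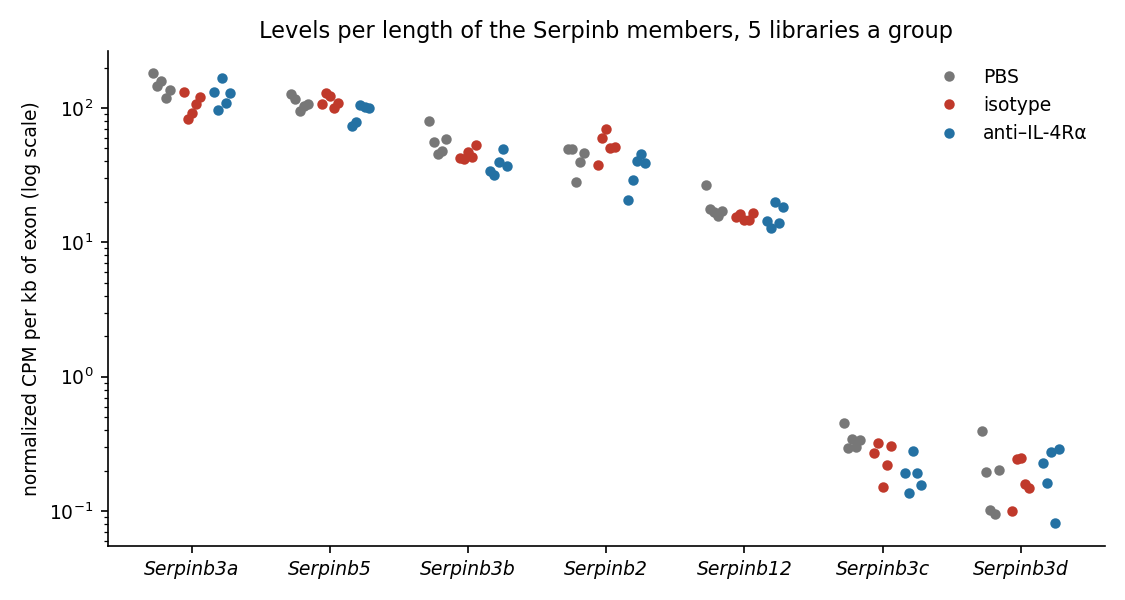
Levels of the 7 members as normalized CPM per kb of exon, on a log scale, with a point for each of the 5 libraries per group. *Serpinb3c* and *Serpinb3d* lie between 0.0813 and 0.456 CPM per kb, and each of the other 5 genes is at 12.8 or more.

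Sharing of sequence bears on the lowest of these levels. Of the 90-base windows (the read length) in annotated transcripts, 18 (1.15%) of *Serpinb3b* were also in *Serpinb3c*, 110 (7.13%) of *Serpinb3a* were also in the gene model Gm8080, and 186 (7.93%) of *Serpinb2* were also in *Serpinb10*. *Serpinb3c* had 11 to 55 counts per library against 2631 to 9781 of *Serpinb3b*, so its values are uncertain, and the part of misplaced *Serpinb3b* reads in them was not tested. *Serpinb3d*, with 4 to 35 counts per library, shared no such window with another gene.

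With OVA challenge under isotype, 0 of 7 members passed the test (edgeR quasi-likelihood test, adjusted p under 0.05 over all genes tested), against 17.0% of all genes tested. An unadjusted p under 0.05 was obtained for 2 of 7, and DESeq2, which called 22.5% of all genes, called 1 member, *Serpinb3a*. Of the 7 estimates, 5 were below 0, with a median log2 fold change of -0.28 beside -0.01 over all genes. For no member did the libraries of the isotype and PBS groups separate, which they did for 12.3% of all genes.

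*Serpinb3a*, an inhibitor of papain-like cysteine proteases and of chymotrypsin-like serine proteases, had the estimate nearest to the threshold. Its level was 296, 236, 257, 193 and 223 CPM in PBS replicates 1 to 5. In the isotype group it was 215, 134, 149, 174 and 198 CPM. Isotype replicates 1 and 5 reached into the PBS range, and the other 3 lay below it. The log2 fold change was -0.47 ± 0.16 (SE, as after every log2 fold change; 95% interval -0.81 to -0.13; edgeR adjusted p = 0.0576; exact permutation test over 252 splits, two-sided p = 0.0238, unadjusted). Over 12 alternative settings the log2 fold change was -0.53 to -0.39 with an adjusted p of 0.0246 to 0.0846, and 4 of the 12 called it, among them DESeq2 (0.0246) and the fit with the conjunctival epithelium score as a covariate (0.0274). Of 15 fits that each left out a library (adjusted p up to 0.134), 4 called it, those without PBS replicate 4 (0.0484), isotype replicate 1 (0.0297), anti–IL-4Rα replicate 2 (0.0461) or anti–IL-4Rα replicate 3 (0.0389), so the call is borderline.

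Of the other copies, *Serpinb3b*, an inhibitor of the same kinds of protease as *Serpinb3a*, ranged from 76.2 to 134 CPM with PBS and from 70.4 to 89.5 CPM with OVA and isotype (log2 fold change -0.34 ± 0.15, edgeR adjusted p = 0.132). *Serpinb3c* was at 0.492 to 0.756 and 0.252 to 0.532 CPM (-0.44 ± 0.23, adjusted p = 0.19). *Serpinb3d* was at 0.115 to 0.481 and 0.123 to 0.303 CPM (-0.14 ± 0.41, adjusted p = 0.853), and its 95% interval of -1.0 to 0.73 leaves room for a change of either sign. *Serpinb12*, an inhibitor of trypsin-like serine proteases, was at 39.0 to 66.8 and 36.4 to 41.0 CPM (-0.28 ± 0.15, adjusted p = 0.196).

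*Serpinb2*, known as plasminogen activator inhibitor type 2, which inhibits urokinase, was at 116, 117, 65.7, 93.0 and 108 CPM in the PBS group. In the isotype group it was at 88.8, 141, 164, 119 and 120 CPM. All isotype libraries except replicate 1 were above every PBS library, but the difference did not pass the test (log2 fold change 0.34 ± 0.22; 95% interval -0.12 to 0.81; edgeR adjusted p = 0.287). *Serpinb5*, maspin, a clade B member without protease inhibition that is known as an epithelial tumor suppressor, was at 260 to 350 CPM with PBS and at 274 to 354 CPM with OVA and isotype. The fitted difference on the log2 scale was 0.04 ± 0.11, and the 95% interval of -0.20 to 0.29 is the narrowest among the members.

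**Figure D2:**
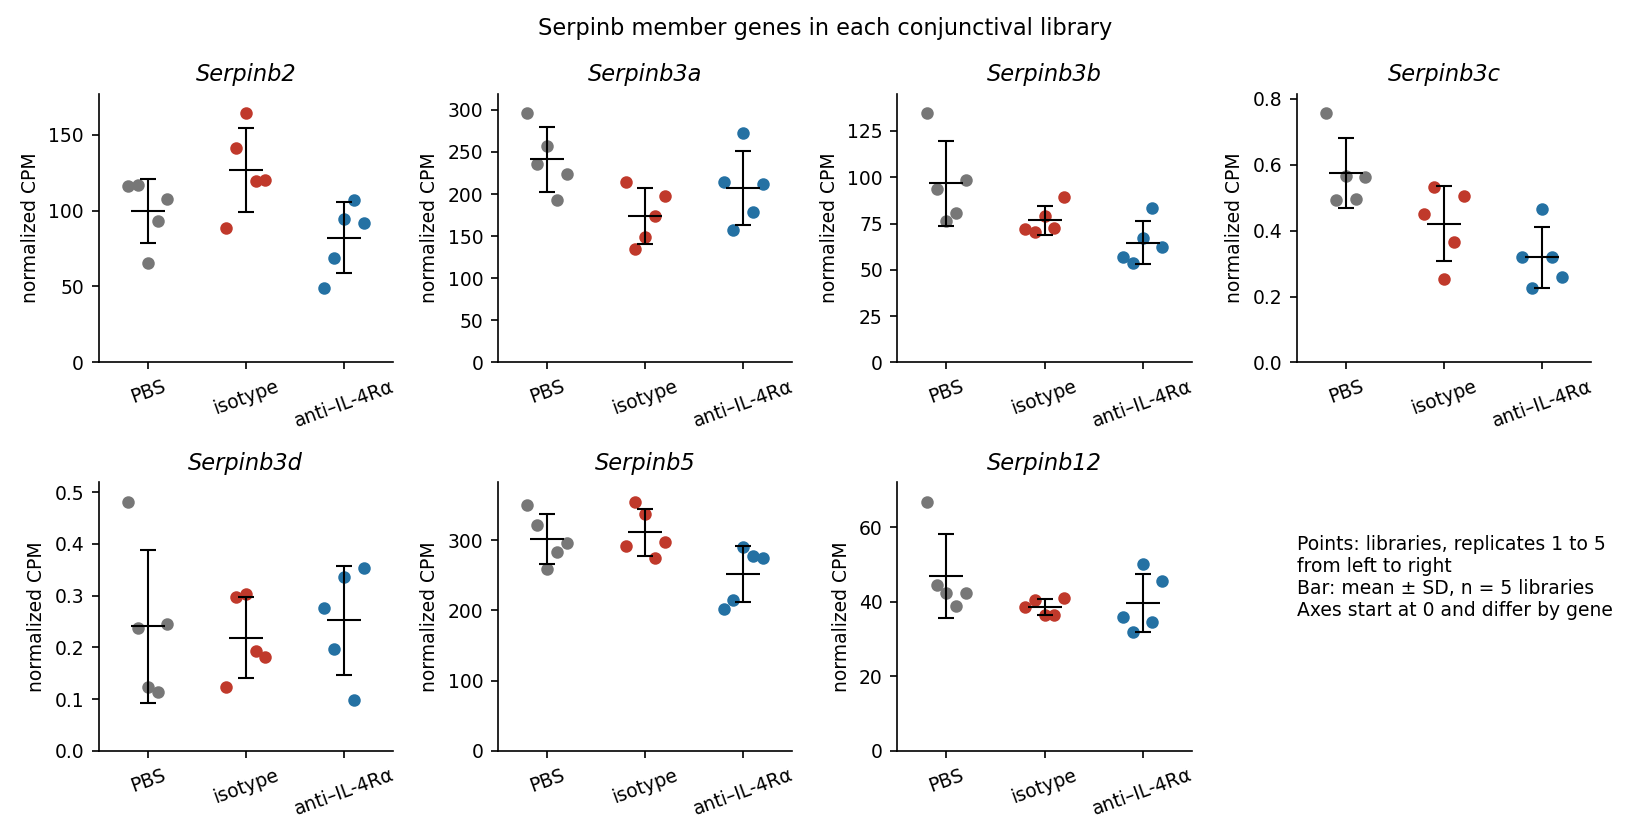
Normalized CPM of each member in the 5 libraries of each group (replicates 1 to 5 from left to right), with mean ± SD; each axis starts at 0. Isotype and PBS libraries overlap for all 7 genes, and anti–IL-4Rα libraries lie below all PBS libraries for *Serpinb3c* (0.226 to 0.466 against 0.492 to 0.756 CPM).

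Under IL-4Rα blockade, 0 of 7 members passed the test against the isotype group, while 14.9% of all genes did. An unadjusted p under 0.05 was obtained for 2 of 7, *Serpinb2* and *Serpinb5*, and DESeq2, which called 21.3% of all genes, called both. The median log2 fold change of the members was -0.25 beside 0.01 over all genes, with 4 estimates below 0 and 3 above. For no member did the libraries of these groups separate, which they did for 7.31% of all genes.

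*Serpinb2* was at 48.8, 68.8, 94.2, 107 and 91.5 CPM in anti–IL-4Rα replicates 1 to 5. Beside the isotype values above, only isotype replicate 1 (88.8 CPM) fell within this range. The log2 fold change was -0.63 ± 0.22 (95% interval -1.09 to -0.16; edgeR adjusted p = 0.0642; exact permutation two-sided p = 0.0317, unadjusted). Of the 12 alternatives, 1 called it, DESeq2 (adjusted p = 0.0249), and their log2 fold changes were -0.65 to -0.29 with adjusted p up to 0.478, the latter with the conjunctival epithelium score as a covariate. Of 15 fits that left out a library, 1 called it, that without isotype replicate 1 (0.0328; the others up to 0.153). Against the PBS group the log2 fold change was -0.28 ± 0.22 (adjusted p = 0.467).

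For *Serpinb5*, the anti–IL-4Rα libraries were at 202, 215, 291, 277 and 274 CPM, with replicates 1 and 2 below every other library of the series. The log2 fold change against isotype was -0.30 ± 0.11 (95% interval -0.55 to -0.06; edgeR adjusted p = 0.0836), and it was called by 1 of 12 alternatives (DESeq2, 0.0473) and in 1 of 15 fits that left out a library (without anti–IL-4Rα replicate 3, 0.0427). Against PBS it was -0.26 ± 0.11 (adjusted p = 0.184). The summed conjunctival epithelium markers also had their lowest libraries in the anti–IL-4Rα group, and when counts were scaled to that sum the estimate of *Serpinb5* against isotype was 0.02 (adjusted p = 0.856). This scaling, described below, was chosen after seeing the data. Of the 8 summed markers, 7 had estimates below 0 in this comparison, 2 of them called, and 1 was above 0. Their part in the scaled estimate was not tested.

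The estimates of *Serpinb3a* and *Serpinb12* lay above 0 in this comparison. *Serpinb3a* was at 215, 157, 273, 178 and 212 CPM in the anti–IL-4Rα group, a log2 fold change of 0.25 ± 0.16 (95% interval -0.09 to 0.59; edgeR adjusted p = 0.285). *Serpinb12* was at 31.9 to 50.2 CPM, a log2 fold change of 0.04 ± 0.15 (adjusted p = 0.877). *Serpinb3b*, *Serpinb3c* and *Serpinb3d* had log2 fold changes of -0.25 ± 0.15, -0.40 ± 0.24 and 0.18 ± 0.41, with adjusted p of 0.255, 0.252 and 0.781.

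**Figure D3:**
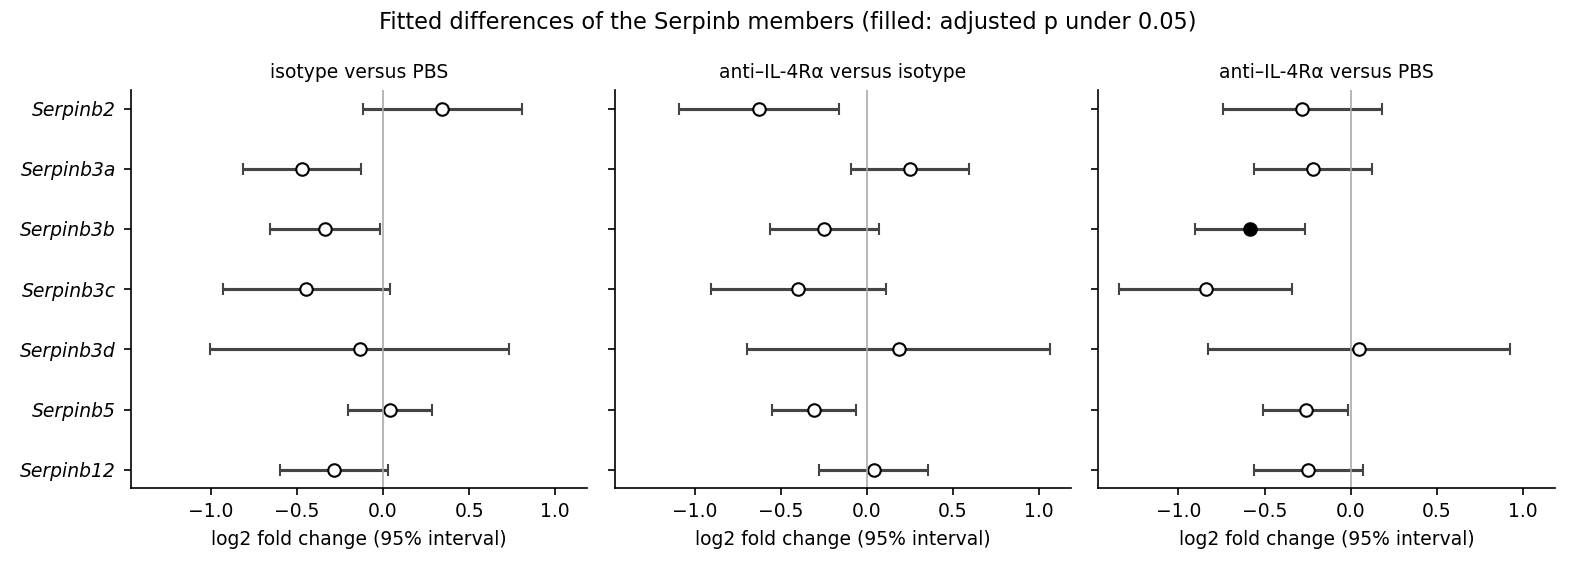
Log2 fold changes of the 7 members in the 3 comparisons with 95% intervals from edgeR; filled points passed an adjusted p of 0.05. The single filled point is *Serpinb3b* in anti–IL-4Rα against PBS, at -0.58 (interval -0.90 to -0.27).

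Between the anti–IL-4Rα and PBS groups, 1 of 7 members passed the test, *Serpinb3b*, which was lower; 3.72% of all genes passed. *Serpinb3b* was at 134, 93.8, 76.2, 80.7 and 98.7 CPM in the PBS group. In the anti–IL-4Rα group it was at 57.1, 53.5, 67.1, 83.2 and 62.1 CPM, and only replicate 4 reached into the PBS range. The log2 fold change was -0.58 ± 0.15 (0.667-fold; edgeR adjusted p = 0.046; exact permutation two-sided p = 0.0238, unadjusted). The call is narrow, since leaving out PBS replicate 1, 2, 4 or 5, isotype replicate 1, 3 or 4, or replicate 1, 2 or 5 of the anti–IL-4Rα group ended it, with log2 fold changes of -0.69 to -0.44 and adjusted p of 0.035 to 0.0997 over the 15 libraries left out in turn. With the lacrimal acinar score as a covariate the log2 fold change was -0.55 (adjusted p = 0.231), and with the conjunctival epithelium score it was -0.46 (0.379).

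*Serpinb3c* was the only member whose groups separated, which 6.10% of all genes did in this comparison. It was at 0.756, 0.492, 0.566, 0.497 and 0.562 CPM in the PBS group and at 0.320, 0.226, 0.466, 0.321 and 0.260 CPM in the anti–IL-4Rα group. The log2 fold change was -0.84 ± 0.23 (95% interval -1.34 to -0.34; edgeR adjusted p = 0.0591; exact permutation two-sided p = 0.00794, unadjusted, the smallest that 252 splits can give). Its counts were 26 to 55 in the PBS and 11 to 32 in the anti–IL-4Rα libraries. DESeq2 (adjusted p = 0.0313) and limma's voom with quality weights (0.0209) called it, while 10.3% and 12.2% of all genes were called by these tools. The other 10 alternatives did not, with adjusted p up to 0.423 (conjunctival epithelium score as a covariate), and the log2 fold change was nearest to 0 at -0.18 in the linear model on log2(FPKM + 1), a scale that shrinks the change of scarce genes. Of 15 fits that left out a library, 1 called it, that without anti–IL-4Rα replicate 3 (0.0142; the others up to 0.135). The remaining members had log2 fold changes of -0.28 to 0.05 against PBS, none past the threshold.

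The members were also set against the epithelial marker counts of the same library, a scaling chosen after seeing the data. Per 1000000 counts of the 8 markers, *Serpinb3a* had 14667 to 18328 counts in the PBS group, 8505 to 14232 in the isotype group and 14714 to 18931 in the anti–IL-4Rα group. The isotype libraries lay below all others. *Serpinb12* had 2871 to 4142, 2084 to 2768 and 2909 to 3829 counts on this scale, again with the isotype libraries below the rest. The share of all genes that separate in this way on this scale was not determined.

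In the fit scaled to these markers, *Serpinb3a* was lower in the isotype than in the PBS group (log2 fold change -0.53, edgeR adjusted p = 0.0279) and higher in the anti–IL-4Rα than in the isotype group (0.56, 0.00989). *Serpinb12* was higher in the anti–IL-4Rα than in the isotype group (0.35, adjusted p = 0.0222). In isotype against PBS, *Serpinb12* was called in 0 of the 12 alternatives, this scaling included. On this scaling 7.46% and 51.7% of all genes were called in the respective comparisons, so the second set of calls is no sign of something particular to these genes. One of the markers, *Krt14*, was itself at 2887 to 3544 CPM in the PBS, 4103 to 5718 in the isotype and 2371 to 3148 in the anti–IL-4Rα group, and its part in the result was not tested.

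**Figure D4:**
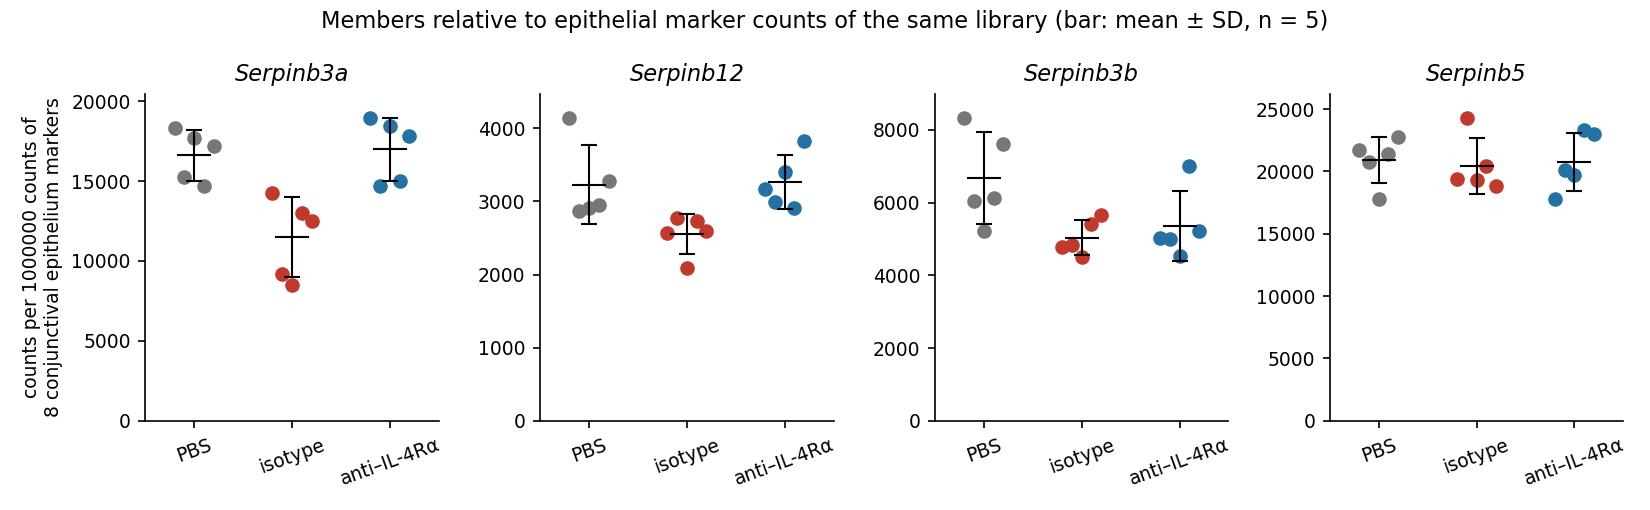
Counts of 4 members per 1000000 counts of 8 conjunctival epithelium markers in the same library, 5 libraries per group with mean ± SD. Isotype libraries lie below those of both other groups for *Serpinb3a* (8505 to 14232) and *Serpinb12* (2084 to 2768), and overlap them for *Serpinb3b* and *Serpinb5*. The share of all genes that separate on this scale was not determined.

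Across the 15 libraries, *Serpinb2* and *Serpinb5* varied together (Pearson r = 0.88 of log2 CPM, and 0.86 after centering each group), while *Serpinb2* and *Serpinb3a* did not (-0.33 and -0.19). *Serpinb3a* and *Serpinb12* had r = 0.74 (0.69 centered), and *Serpinb3a* and *Serpinb3b*, despite their likeness in sequence, 0.42 (0.34 centered). These correlations are descriptions over 15 libraries that share tissue makeup. With the mean log2 CPM of 6 epidermis markers (*Krt1*, *Krt10*, *Krt2*, *Flg*, *Flg2* and *Krtdap*), the centered r was 0.84 for *Serpinb5*, 0.80 for *Serpinb12*, 0.65 for *Serpinb3b*, 0.64 for *Serpinb2* 0.61 for *Serpinb3d*, 0.46 for *Serpinb3a* and 0.34 for *Serpinb3c*. With the mean of the 8 conjunctival epithelium markers it was 0.64 for *Serpinb12*, 0.61 for *Serpinb3a*, 0.45 for *Serpinb5*, 0.42 for *Serpinb3d*, 0.28 for *Serpinb3c*, 0.25 for *Serpinb3b* and 0.16 for *Serpinb2*.

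The tested genes most like each member by Pearson r were found over the same libraries. For *Serpinb5* they were *Ppp1r14c*, *Lypd5* and *Slco3a1* (r = 0.97 for each, 0.96, 0.95 and 0.95 centered), and for *Serpinb2* they were *Plek2*, *Dusp7* and *Sdr9c7* (0.94, 0.93 and 0.93; 0.91, 0.90 and 0.90 centered). *Serpinb3a* was most like *Chmp2a*, *Hmgn3* and Gm45941 (0.90 each; 0.87, 0.83 and 0.84 centered). The nearest to *Serpinb3b* were *Serpina3i*, *Serpina3h* and *Tmem68* (0.93, 0.92 and 0.91; 0.84, 0.84 and 0.83 centered), the first 2 of them serpins of another clade. *Serpinb12* was nearest to *Pde6a*, *Casp1* and *Zfp706* (0.89, 0.83 and 0.83; 0.89, 0.78 and 0.80 centered). For the scarce *Serpinb3c* (*Barx2*, *Usp24* and *Sv2a*, 0.88 to 0.89) and *Serpinb3d* (Gm20125, *Zfp169* and *Dhrs13os*, 0.77 to 0.86), few counts lie behind the correlation.

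Of 21 other clade B serpins listed, 14 were tested, and 2 passed in isotype against PBS, both lower, beside 17.0% of all genes. *Serpinb7*, megsin, was at 39.8 to 77.8 CPM in the PBS and 38.9 to 49.1 CPM in the isotype group (log2 fold change -0.58 ± 0.18, edgeR adjusted p = 0.0402). *Serpinb6e*, a paralog of the *Serpinb6a* family, was at 2.35 to 5.6 and 0.343 to 2.92 CPM (-1.61 ± 0.50, adjusted p = 0.0419). Against isotype, the anti–IL-4Rα group differed in 1 of the 14, beside 14.9% of all genes. This was *Serpinb1c*, a paralog of the neutrophil elastase inhibitor *Serpinb1a*, which was higher (0.430 to 0.981 against 0.995 to 1.64 CPM; 0.74 ± 0.22, adjusted p = 0.0385).

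These 3 calls depend on single libraries. *Serpinb7* kept its call in 6, *Serpinb6e* in 5 and *Serpinb1c* in 9 of 15 fits that each left out a library, with adjusted p up to 0.0894, 0.0873 and 0.0914. *Serpinb7* lost it without any of the isotype libraries or without PBS replicate 1, 2, 4 or 5. *Serpinb6e* lost it without PBS replicate 1, 2, 3 or 4, isotype replicate 2, 3, 4 or 5, and also without replicate 1 or 5 of the anti–IL-4Rα group. The call of *Serpinb1c* ended when isotype replicate 2, 3 or 5 was left out, and likewise for replicates 1, 4 and 5 of the anti–IL-4Rα group. The median log2 fold change of the 14 genes was -0.04 in each of these comparisons, and 0 of 14 passed in anti–IL-4Rα against PBS (2 at an unadjusted p under 0.05; voom called 1 and DESeq2 called 0).

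Proteases that clade B serpins are known to inhibit, and their partners, were examined beside the inhibitors. Of 16 listed, 14 were tested, and 6 were higher and 0 lower in isotype against PBS, where 17.0% of all genes passed in either direction. The median log2 fold change was 0.42. *Plau*, urokinase, the target of *Serpinb2*, was at 42.3 to 53.9 CPM in the PBS and 61.8 to 98.6 CPM in the isotype group (0.65 ± 0.14, edgeR adjusted p = 0.0101). Its receptor *Plaur* rose from 3.04 to 4.61 CPM to 6.64 to 12.3 CPM (1.28 ± 0.26, adjusted p = 0.00694). The groups did not overlap for either gene, as for 12.3% of all genes in this comparison.

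Among cysteine cathepsins, *Ctss*, cathepsin S of antigen-presenting cells, rose from 44.3 to 55.9 CPM to 71.0 to 165 CPM (1.25 ± 0.20, edgeR adjusted p = 0.00228), and *Ctsb*, the lysosomal cathepsin B, rose by 0.38 ± 0.10 (adjusted p = 0.0203). Among serine proteases, *Ctsg*, cathepsin G of neutrophils and mast cells, rose by 2.28 ± 0.43 (edgeR adjusted p = 0.00472). It was at 0.0354 to 0.192 CPM in the PBS and 0.204 to 0.724 CPM in the isotype group. *Cma1*, mast cell chymase, rose by 0.74 ± 0.20 (adjusted p = 0.0214). *Plau*, *Plaur*, *Ctss* and *Ctsg* kept their calls in all 12 alternatives and in all 15 fits that left out a library. *Ctsb* lost it without PBS replicate 2 or 5 or isotype replicate 5, and *Cma1* without PBS replicate 4 or isotype replicate 3 or 5. Both genes were called in 11 of the 12 alternatives. The summed macrophage and monocyte markers were at 425 to 465 CPM in the PBS and 469 to 973 CPM in the isotype group, a list of 6 genes of which 4 passed the test. Neutrophil markers (3 of 5 higher) were at 26.7 to 52.4 CPM with PBS and 59.2 to 117 CPM with OVA and isotype. Eosinophil markers (3 of 4 tested higher) were at 7.59 to 12.4 and 16.4 to 31.2 CPM, and lymphocyte markers (2 of 7 higher) at 9.91 to 13.5 and 16.7 to 31.5 CPM. For none of these 4 sums did the groups overlap, and their part in the rise of these proteases was not tested.

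Against isotype, the anti–IL-4Rα group had 2 of the 14 protease genes past the threshold, beside 14.9% of all genes. *Prss8*, prostasin, a membrane-anchored serine protease of epithelia, was higher (0.34 ± 0.08, edgeR adjusted p = 0.0215; lost without isotype replicate 2, 3 or 5). Its call also ended in the fit to the 2 groups compared and with the lacrimal acinar or conjunctival epithelium score as a covariate. The lacrimal acinar markers had medians of 347 CPM in the isotype and 1431 CPM in the anti–IL-4Rα group, and their part in the level of *Prss8* was not tested. *Ctsh*, cathepsin H, was lower (-0.34 ± 0.11, adjusted p = 0.0481), a call kept in 4 of 12 alternatives and in 3 of 15 fits that left out a library. Against PBS, 0 of 14 passed (5 at an unadjusted p under 0.05).

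**Figure D5:**
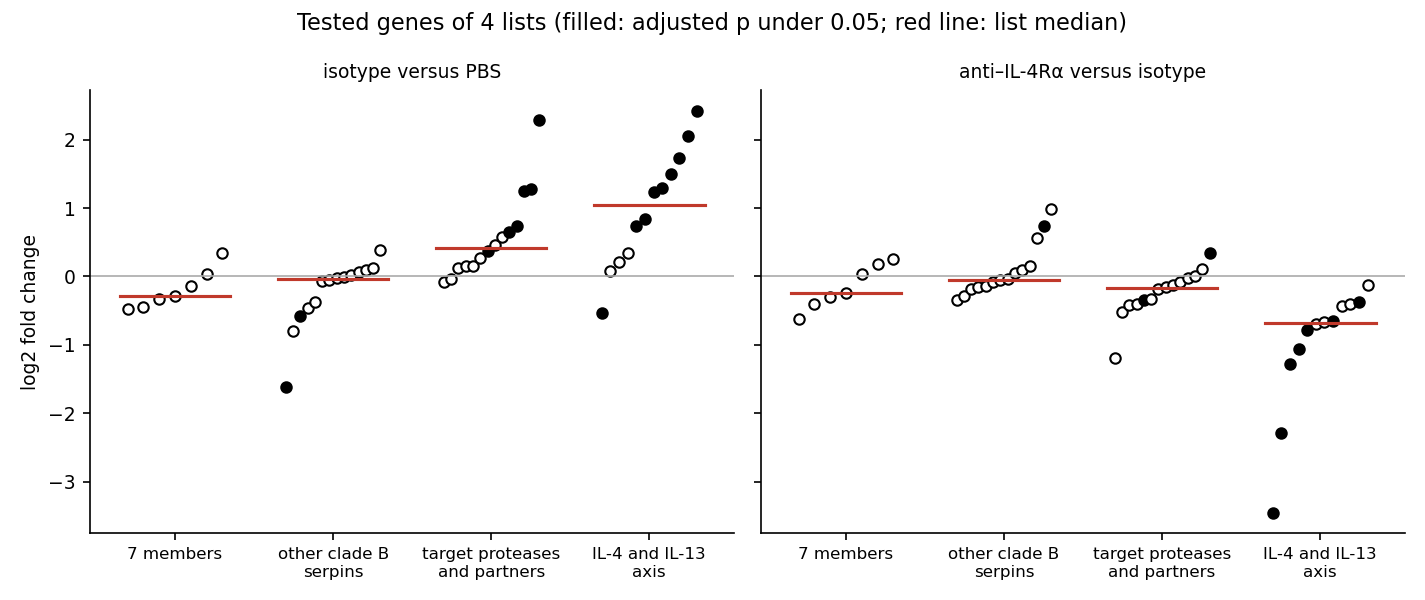
Log2 fold changes of the tested genes of 4 lists in isotype against PBS (left) and anti–IL-4Rα against isotype (right); filled points passed an adjusted p of 0.05 and red lines are list medians. The 7 members are open in both panels, while 6 protease genes and 9 IL-4 and IL-13 axis genes are filled on the left.

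The IL-4 and IL-13 axis gives the setting. Of 12 genes tested, 8 were higher and 1 lower in isotype against PBS, beside 17.0% of all genes: *Il4*, *Il13*, *Il4ra*, *Il2rg*, *Clca1*, *Postn*, *Alox15* and *Retnla* rose by 0.74 (*Il4ra*) to 2.42 (*Alox15*) on the log2 scale, and the decoy receptor *Il13ra2* fell by 0.54. Against isotype, 7 were lower in the anti–IL-4Rα group, namely *Clca1* (-3.45), *Alox15* (-2.29), *Postn* (-1.28), *Il4ra* (-1.06), *Il13ra2* (-0.78), *Arg1* (-0.65) and *Il13ra1* (-0.37), and none was higher, beside 14.9% of all genes. *Clca1* and *Postn* kept this call in all 12 alternatives and all 15 fits that left out a library. *Il4ra* and *Il13ra2* lost it with either score as a covariate and *Alox15* with the conjunctival epithelium score, and all 3 kept it without any single library. *Arg1* kept it in 6 of 12 alternatives and lost it without isotype replicate 2, 3 or 5 or replicate 1, 2, 4 or 5 of the anti–IL-4Rα group, with adjusted p up to 0.097. *Il13ra1* also kept it in 6 of 12, and its call ended when replicate 2, 3 or 5 of the isotype group was dropped, or replicate 1, 2 or 4 of the anti–IL-4Rα group (up to 0.0809). In isotype against PBS, *Il4ra* lost its call without PBS replicate 1, 2, 4 or 5 or isotype replicate 2, 3 or 5, and *Il13ra2* without PBS replicate 1 or 5 or isotype replicate 2 or 3. Of the 12 alternatives in that comparison, 9 called *Il4ra* and 10 called *Retnla*. *Clca1* and *Postn* passed in both comparisons, where *Serpinb2*, which is raised with them in human airway epithelium, had estimates of 0.34 and -0.63 that did not.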

How the data were processed

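Conjunctival RNA of 15 mice was sequenced as polyA-selected, stranded, paired-end libraries. Per the study's methods, the authors aligned pairs uniquely to mouse B38 in Omicsoft Array Studio, with gene models from Ensembl; the counting method and its use of strand are not given in the sources used here. The authors deposited an estimated count per gene and library, unscaled and unfiltered; these values were rounded to whole numbers. The filter followed the study (10 counts or more in 5 libraries or more). Tests used edgeR 4.0.16 (TMM factors, quasi-likelihood test with a term per group, two-sided), with Benjamini-Hochberg adjustment over all genes. Groups came from the labels, whose titles name a separate mouse for each library, so p-values measure the spread between mice. CPM were TMM-normalized, and log2 CPM had a prior count of 2. SEs were derived from the estimates and F statistics. Single values were compared by exact permutation of log2 CPM over 252 splits of 10 libraries.

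Positions and exon lengths came from GENCODE M21, and upstream sequences from RefSeq, where all 7 members matched. All members are named; of the other clade B serpins, proteases and IL-4 and IL-13 axis genes, those called in either comparison with the isotype group; and per member the 3 genes of highest r. The members and lists were chosen with earlier results of these data known. Alternatives were upper quartile factors, DESeq2 1.42.0, limma 3.58.1 voom with quality weights, linear models on log2(FPKM + 1) and log2(CPM + 1), 2 other filters, a fit to the 2 groups compared, a replicate block, lacrimal and epithelial scores as covariates, and leaving out each library; scaling to epithelial markers and leaving out 25 pairs of libraries were chosen after seeing the data. In simulated isotype and PBS data (18843 genes), edgeR called 64.3% of genes changed by 1 and 94% of those changed by 2 on the log2 scale, with 10 false among 167 calls. All estimates of the members were smaller than 1, a size that was not simulated, so these shares do not apply to them. Figures were drawn with matplotlib 3.10.9.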

Additional observations from a re-analysis of the deposited data

Results flagged for a closer look

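Of 21 sets of 5 libraries (7 members in 3 groups), 2 had a library far from the others by Dixon's criterion, which chance gives in about 5% of sets. Both came from PBS replicate 1. *Serpinb12* was at 66.8 CPM there against 39.0 to 44.5 CPM in the other PBS libraries, and *Serpinb3c* was at 0.756 CPM against 0.492 to 0.566 CPM. Without PBS replicate 1, the log2 fold change of *Serpinb3c* in anti–IL-4Rα against PBS was -0.72 (edgeR adjusted p = 0.135), against -0.84 with it. In isotype against PBS, leaving it out took the log2 fold change of *Serpinb12* from -0.28 to -0.12 (adjusted p = 0.494), that of *Serpinb3b* from -0.34 to -0.19 (0.319) and that of *Serpinb3c* from -0.44 to -0.32 (0.373).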

How the results depend on the processing

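Counts of called genes were small, so a single gene moves them. In isotype against PBS, where 0 members were called, 1 was called with DESeq2, with the replicate block, with the epithelial score as a covariate and with scaling to the epithelial markers, in each case *Serpinb3a*; leaving out a library gave 0 to 1. In anti–IL-4Rα against isotype (0 called), DESeq2 called 2 (*Serpinb2* and *Serpinb5*) and the marker scaling, under which 51.7% of all genes were called, called 2 (*Serpinb3a* and *Serpinb12*), and leaving out a library gave 0 to 1. In anti–IL-4Rα against PBS (1 called), DESeq2 and voom called 2. There, 0 were called with the linear models on log2(FPKM + 1) and log2(CPM + 1), without a filter, in the fit to the 2 groups compared, with the replicate block, with either score as a covariate and with the marker scaling, and leaving out a library gave 0 to 2. Dropping 1 library of each antibody group at a time, in 25 fits chosen after seeing the data, gave 0 to 1, 0 to 2 and 0 to 2 called members in these comparisons; the study mentions 2 outliers that its text does not name.

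Of the other clade B serpins, 2 were called in isotype against PBS. There, 1 was called with either linear model or with the lacrimal score, 0 without a filter or with the replicate block, and 0 to 3 on leaving out a library. In anti–IL-4Rα against isotype (1 called), DESeq2 called 2 and the marker scaling 6 (21.3% and 51.7% of all genes), 0 were called without a filter, in the fit to the 2 groups or with either score, and leaving out a library gave 0 to 3. In anti–IL-4Rα against PBS (0 called), voom called 1 and leaving out a library gave 0 to 1.

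The sign of some members' log2 fold changes also turned, in no case past the threshold. For isotype against PBS, *Serpinb3d* was at 0.084 with voom and at -0.30 to 0.30 on leaving out a library, and *Serpinb5* was at -0.032 with the marker scaling and at -0.0080 to 0.10 on leaving out a library. Comparing anti–IL-4Rα with isotype, the marker scaling gave 0.088 for *Serpinb3b* and 0.023 for *Serpinb5*, and *Serpinb12* was at -0.061 to 0.11 on leaving out a library. Comparing anti–IL-4Rα with PBS, *Serpinb3a* was at 0.065 with the epithelial score and 0.031 with the marker scaling, *Serpinb12* at 0.034 and 0.013, and *Serpinb3d* at -0.12 to 0.48 on leaving out a library. Of 252 values of the members under the 12 alternatives, 226 kept their sign and side of the threshold, as did 289 of 315 on leaving out a library. The cause of these changes was not tested.

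The replicate numbers are shared between groups. Deviations of same-numbered libraries had correlations of both signs (-0.385 to 0.454), and differently numbered libraries were not compared, so a shared deviation was not settled. The replicate block was an alternative only. With it, 11.1% and 1.64% of all genes were called in isotype and in anti–IL-4Rα against PBS. Depth limits *Serpinb3c* and *Serpinb3d*, with 4 to 55 counts per library.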
